A study of Mus musculus with 84 samples.

Results

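The iron and hepcidin genes described here are the 10 members Hamp, Hamp2, Tfrc, Tfr2, Trf, Slc40a1, Fth1, Bmp6, Id1 and Smad7, of 48794 genes listed in the liver and adipose tissue tables. A member was taken where its Ensembl identifier carried that symbol in the GENCODE M21 annotation, and all 10 were found and passed the filter on low values in both tissues. They were named for their roles in iron handling, by a rule that uses no measured value, but with earlier results of these data known.

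RNA sequencing had been run on liver and on epididymal white adipose tissue (eWAT) of male C57BL/6J mice made obese by a high fat diet, the DIO model. The mice were 22 weeks old at the start and were injected once daily under the skin for 30 days. The 7 groups were vehicle, semaglutide at 20 and at 100 nmol/kg, and BI 456906 at 4 doses rising from 3 over 10 and 20 to 30 nmol/kg, and each tissue held 6 libraries per group, 42 in all. BI 456906 is a single peptide that activates the glucagon receptor and the GLP-1 receptor, whereas semaglutide acts on the GLP-1 receptor. All 7 groups, the vehicle group included, were obese mice on the same diet, so no lean control enters a comparison.

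Hepcidin, the product of Hamp, is the liver hormone that sets body iron. It binds ferroportin (Slc40a1), the only known cellular iron exporter, and causes its removal, which holds iron inside macrophages and gut cells. BMP6, made largely by the sinusoidal endothelium of the liver, acts on hepatocytes through SMAD proteins to raise Hamp, and Id1 and Smad7 are targets of the same signal, Smad7 as its inhibitor. Transferrin (Trf) carries iron in plasma, the transferrin receptor encoded by Tfrc takes it up, and Tfr2 is the hepatocyte receptor that takes part in sensing transferrin iron. Fth1 encodes the heavy chain of ferritin, the iron store of cells. Iron regulatory proteins bind Tfrc and ferritin messengers when iron is low, which stabilises the former and blocks translation of the latter.

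Liver libraries held 21676902 to 53869104 reads assigned to genes (median 43179390), and eWAT libraries 37573004 to 53996914 (median 46475069). The hepatocyte marker genes were abundant in liver, with a summed level of 69665 to 83033 TPM, a share of all transcripts scaled for transcript length, in the vehicle group. Adipocyte markers summed to 17727 to 34196 TPM in eWAT of the vehicle group. None of the markers of either list was at 0 in its own tissue. The closest pair of replicates still differed by 15.9 times the sampling noise in liver and 13.3 times in eWAT, as chi-square per degree of freedom over genes, so no library was counted as a copy of another. Because whole tissue was sequenced, a lower level of a gene in fewer cells and less RNA per cell cannot be told apart.

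Hamp and Hamp2 lie side by side on mouse chromosome 7, Hamp from 30942368 to 30944032 and Hamp2 from 30922372 to 30924681 on the minus strand (GRCm38, GENCODE M21). Their longest protein-coding transcripts were 89% identical over 437 aligned positions, so the counting could have moved reads between them. On the same build, Tfrc lies on chromosome 16 (32608920 to 32632794), Tfr2 on 5 (137569840 to 137587481), Fth1 on 19 (9980598 to 9985098), Bmp6 on 13 (38345107 to 38500302) and Id1 on 2 (152736251 to 152737410), all on the plus strand. Trf on chromosome 9 (103204001 to 103230444) and Slc40a1 on 1 (45908068 to 45926523) lie on the minus strand.

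The promoters of Hamp and Hamp2 are shown because Hamp rose with both compounds against vehicle and Hamp2 passed between the compounds. RefSeq promoters on GRCm38.p6 were found for 6 of the 10 members. The 250 bases before the RefSeq start of each gene are printed on the strand of the gene, Hamp at chr7:30944030-30944279 and Hamp2 at chr7:30924182-30924431. For Hamp2 this start lies inside the GENCODE M21 span given above, so its printed stretch lies within that span. Capitals mark GGCGCC, the core of the BMP response element described for hepcidin, in Hamp, the 6 bases aligned to it in Hamp2, and the match to the STAT motif TTCNNNGAA in each.
Hamp: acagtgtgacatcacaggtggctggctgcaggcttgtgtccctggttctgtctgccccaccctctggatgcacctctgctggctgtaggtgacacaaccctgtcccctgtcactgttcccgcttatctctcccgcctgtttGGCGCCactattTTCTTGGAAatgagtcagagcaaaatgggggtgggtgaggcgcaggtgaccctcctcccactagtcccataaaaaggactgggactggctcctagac
Hamp2: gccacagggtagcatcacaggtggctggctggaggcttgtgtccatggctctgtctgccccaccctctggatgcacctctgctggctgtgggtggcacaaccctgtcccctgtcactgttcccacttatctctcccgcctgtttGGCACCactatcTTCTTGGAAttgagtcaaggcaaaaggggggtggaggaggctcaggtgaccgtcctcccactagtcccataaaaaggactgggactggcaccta

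The 2 stretches were 89.7% identical over 253 aligned positions. The difference within the marked core was G145A, with Hamp first and the position counted from 1 at the first printed base of Hamp. GGCGCC, which reads the same on both strands, was present in 9.59% of the 32851 promoters of the same length, and TTCNNNGAA in 7.02%. The cAMP response element TGACGTCA (1.55% of promoters) and the E-box CACGTG (6.02%) matched neither stretch. Motifs were searched on both strands, the matches do not overlap, and a match describes the letters only.

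In liver, most of the 10 genes changed with treatment. Against vehicle, 8 of 10 passed the test in mice given BI 456906 at 30 nmol/kg, where 58.8% of the 15964 genes tested passed. The test was limma with voom weights on TMM-normalised values, adjusted by Benjamini-Hochberg over all genes tested, and a gene passed at an adjusted p of at most 0.05. Hamp, Tfrc, Tfr2, Bmp6, Id1 and Smad7 rose, 6 members beside 28.9% of all genes, and Fth1 and Trf fell, 2 members beside 29.9%. The median log2 fold change of the 10 members was 0.71 against -0.03 over all genes, and their median size was 0.82 against 0.36. Hamp, Tfrc and Id1 also reached a log2 fold change of 1 in size, 3 of 10 members where 12.9% of all genes did.

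Semaglutide at 100 nmol/kg moved the same number of members in liver, 8 of 10 with 48.2% of all genes passing. The 6 that rose stand beside 24% of all genes and the 2 that fell beside 24.1%. Hamp and Id1 reached a log2 fold change of 1 in size, 2 of 10 members beside 6.75% of genes. At semaglutide 20 nmol/kg 7 members passed (46.5% of all genes). At the lower doses of BI 456906, 6 members passed at 20 nmol/kg (45.9% of genes), 3 at 10 nmol/kg (37.5%) and 2 at 3 nmol/kg (13.4%). The 6 comparisons share the vehicle libraries, so their values are given side by side without a test of their likeness.

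**Figure D1:**
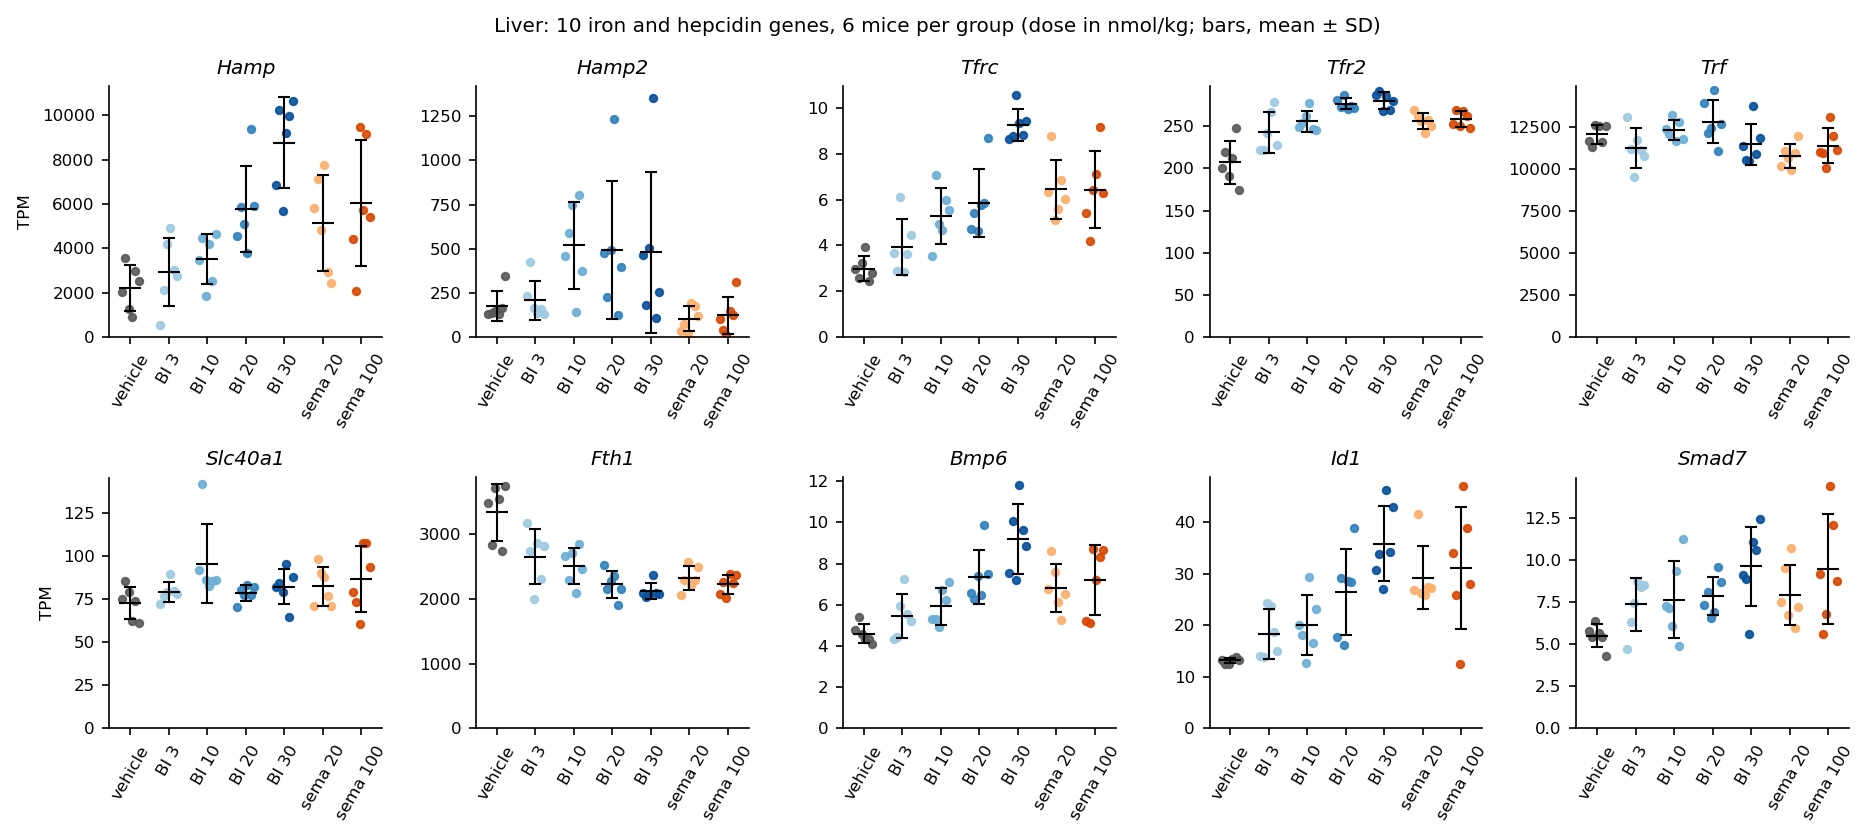
Level of each of the 10 genes in liver in TPM (vertical axis, from 0) by treatment group with the dose in nmol/kg (horizontal axis), with 1 point per mouse and the mean ± SD of 6 mice. Hamp, Tfrc, Bmp6 and Id1 climb with the dose of BI 456906, Fth1 declines, and Hamp2 scatters widely in the groups given BI 456906 at 10 nmol/kg or more.

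Hamp, which encodes hepcidin, was among the abundant liver transcripts. Its level was 879 to 3565 TPM with a median of 2280 in vehicle mice. With BI 456906 it was 543.5 to 4926 TPM (median 2890) at 3 nmol/kg and 1835 to 4640 TPM (median 3836) at 10 nmol/kg. The levels at these low doses overlapped the vehicle range, and neither contrast passed the test at the main settings (log2 fold change 0.26 ± 0.39, SE, adjusted p = 0.711 from limma at 3 nmol/kg, and 0.66 ± 0.40, adjusted p = 0.198 at 10 nmol/kg). At 10 nmol/kg Hamp passed with sample quality weights in limma (0.88, adjusted p = 0.0345).

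At 20 nmol/kg of BI 456906 Hamp lay at 3810 to 9379 TPM (median 5468) and at 30 nmol/kg at 5672 to 10662 TPM (median 9594). All 6 mice of either group lay above the highest vehicle mouse. The log2 fold change was 1.39 ± 0.40 (adjusted p = 0.00448) at 20 nmol/kg and 2.05 ± 0.41 (adjusted p = 4.68e-05) at 30 nmol/kg, the latter a 4.15-fold rise. Under semaglutide Hamp was 2449 to 7740 TPM (median 5319) at 20 nmol/kg and 2077 to 9487 TPM (median 5570) at 100 nmol/kg. These ranges overlapped that of vehicle while the means differed, with log2 fold changes of 1.19 ± 0.40 (adjusted p = 0.0144) and 1.40 ± 0.40 (adjusted p = 0.00418). The call for Hamp at semaglutide 20 nmol/kg was lost without vehicle library 46, the lowest of its group (adjusted p = 0.0565). Hepatocyte markers summed to 89369 to 102561 TPM with BI 456906 at 30 nmol/kg, above all vehicle mice, with 5 of 6 rising and 1 falling in the test, and their part in the rise of Hamp was not tested.

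Hamp2 is a copy of Hamp found in mice, whose product is not held to regulate iron. It was present at 131 to 343 TPM (median 143) in vehicle liver. BI 456906 gave 143 to 806 TPM (median 526) at 10 nmol/kg, 127 to 1237 (median 435) at 20 nmol/kg and 110 to 1355 (median 360) at 30 nmol/kg. Semaglutide gave 24.6 to 195 TPM (median 97.2) at 20 nmol/kg and 13.5 to 310 (median 115) at 100 nmol/kg. The ranges of all groups overlapped that of vehicle, and single mice stood far above the rest of their group. Exons of Hamp2 overlap the non-coding gene Gm44662 on the other strand, and the part of this overlap in the values was not tested. By limma at the main settings no contrast of Hamp2 against vehicle passed. The log2 fold changes were 0.99 ± 0.56 (adjusted p = 0.129) for BI 456906 at 30 nmol/kg and -1.08 ± 0.61 (adjusted p = 0.145) for semaglutide at 100 nmol/kg. With sample quality weights in limma, BI 456906 passed at 10 (1.61, adjusted p = 0.00921), 20 (1.55, adjusted p = 0.0141) and 30 nmol/kg (1.24, adjusted p = 0.0273). With only the groups compared, Hamp2 passed by limma at 10 (adjusted p = 0.0157) and 20 nmol/kg (adjusted p = 0.0428). For BI 456906 at 30 nmol/kg it did pass with edgeR's quasi-likelihood test (adjusted p = 0.0412) and with DESeq2 (adjusted p = 0.0392) on the recovered reads, both at 1.34, and at 10 nmol/kg with DESeq2 (1.38, adjusted p = 0.0492).

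The share of Hamp2 in the sum of both transcripts was 3.73 to 12.95% in vehicle mice, 1.09 to 12.8% with BI 456906 at 30 nmol/kg and 0.142 to 5.405% with semaglutide at 100 nmol/kg. Because reads can pass between the copies, their TPM values were also summed. The sum was 1009 to 3703 TPM in vehicle mice, 6175 to 10915 with BI 456906 at 30 nmol/kg and 2115 to 9501 with semaglutide at 100 nmol/kg. In exact two-sided permutation tests on the log2 scale, adjusted over the 6 contrasts, the sum was higher by 2.07 (adjusted p = 0.00649) at BI 456906 30 nmol/kg and by 1.5 (adjusted p = 0.00649) at 20 nmol/kg. It was also higher at 10 nmol/kg by 0.87 (permutation, adjusted p = 0.0286), with semaglutide 20 nmol/kg by 1.17 (adjusted p = 0.0286) and with 100 nmol/kg by 1.36 (adjusted p = 0.0286). The call for the sum was lost at semaglutide 20 nmol/kg without library 73, 74 or 76 (permutation, adjusted p = 0.0519 each) and at BI 456906 10 nmol/kg without library 55, 56, 58 or 60 (permutation, adjusted p up to 0.0649). At 3 nmol/kg the difference was 0.33 (permutation, adjusted p = 0.513). With 6 against 6 mice the smallest p such a test can give is 0.00216 before adjustment.

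Bmp6, the ligand upstream of hepcidin, rose in liver at the higher doses. It measured 4.08 to 5.39 TPM (median 4.47) in vehicle mice, 6.3 to 9.85 (median 6.99) with BI 456906 at 20 nmol/kg and 7.19 to 11.8 (median 9.24) at 30 nmol/kg. The vehicle mice lay below every mouse of both groups. The log2 fold changes were 0.52 ± 0.15 (adjusted p = 0.00401) and 0.91 ± 0.14 (adjusted p = 1.17e-06). Semaglutide gave 5.27 to 8.63 TPM (log2 fold change 0.45 ± 0.15, adjusted p = 0.0133) at 20 nmol/kg and 5.12 to 8.71 TPM (0.53 ± 0.15, adjusted p = 0.00324) at 100 nmol/kg, with some mice in the vehicle range. Markers of the sinusoidal endothelium, the main source of BMP6 in liver, summed to 209 to 263 TPM in vehicle mice and 249 to 272 TPM with BI 456906 at 30 nmol/kg, 1 of the 8 rising and 1 falling in the test. The part of cell composition in the Bmp6 result was not tested. Exons of Bmp6 overlap Txndc5 on the other strand.

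Id1, a transcription regulator induced by BMP signals, was at 12.51 to 13.9 TPM (median 13.3) in vehicle liver. It was at 27.1 to 46.1 TPM (median 34) with BI 456906 at 30 nmol/kg, with no overlap, a log2 fold change of 1.35 ± 0.24 (adjusted p = 9.38e-06). At 20 nmol/kg of BI 456906 it was at 16.2 to 38.7 TPM (0.84 ± 0.25, adjusted p = 0.00539). Semaglutide gave 25.9 to 41.6 TPM (1.06 ± 0.25, adjusted p = 0.000581) at 20 nmol/kg and 12.52 to 46.9 TPM (1.07 ± 0.25, adjusted p = 0.000476) at 100 nmol/kg, where 1 mouse stayed in the vehicle range. Smad7, the inhibitor of the signal, moved less. It was at 4.34 to 6.4 TPM in vehicle mice, 5.64 to 12.49 with BI 456906 at 30 nmol/kg (0.51 ± 0.17, adjusted p = 0.00787) and 5.6 to 14.4 with semaglutide at 100 nmol/kg (0.57 ± 0.17, adjusted p = 0.00446), overlapping ranges in either case.

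Tfrc, the receptor for transferrin uptake, was low in vehicle liver at 2.45 to 3.92 TPM (median 2.87). It reached 3.53 to 7.05 TPM (median 5.23) with BI 456906 at 10 nmol/kg, 4.64 to 8.7 (median 5.6) at 20 nmol/kg and 8.63 to 10.6 (median 9.06) at 30 nmol/kg. The highest dose stood clear of vehicle, with a log2 fold change of 1.46 ± 0.17 (adjusted p = 2.61e-09), a 2.76-fold rise. Semaglutide gave 5.11 to 8.77 TPM (0.96 ± 0.17, adjusted p = 2.29e-05) at 20 nmol/kg and 4.17 to 9.17 TPM (0.86 ± 0.17, adjusted p = 9.25e-05) at 100 nmol/kg, above all vehicle mice at both doses. Red cell precursors also carry this receptor, and the erythroid markers summed to 855 to 1476 TPM in vehicle liver and 903 to 1074 TPM with BI 456906 at 30 nmol/kg, with 0 rising and 4 of the 6 tested falling.

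Fth1, the ferritin heavy chain, ran in the other direction. It was at 2741 to 3739 TPM (median 3509) in vehicle liver, 1997 to 3180 (median 2782) with BI 456906 at 3 nmol/kg and 2026 to 2371 (median 2084) at 30 nmol/kg. The fall passed the test at every dose of BI 456906, from a log2 fold change of -0.39 ± 0.09 (adjusted p = 0.00444) at 3 nmol/kg to -0.73 ± 0.09 (adjusted p = 6.08e-09) at 30 nmol/kg. At 3 nmol/kg the call was lost when only the groups compared were fitted (limma, adjusted p = 0.11). Semaglutide gave -0.62 ± 0.09 (adjusted p = 5.36e-07) at 20 nmol/kg and -0.66 ± 0.09 (adjusted p = 1.88e-07) at 100 nmol/kg, and no mouse of either group reached the lowest vehicle mouse. Fth1 has processed copies in the genome that can share its reads.

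Tfr2, the hepatocyte sensor, rose slightly in liver, from 174 to 248 TPM in vehicle mice to 268 to 292 TPM with BI 456906 at 30 nmol/kg (0.35 ± 0.07, adjusted p = 2.69e-05) and 248 to 269 TPM with semaglutide at 100 nmol/kg (0.24 ± 0.07, adjusted p = 0.00329). Relative to the hepatocyte marker albumin (Alb) it changed little. Per 1000 TPM of Alb, liver held 4.57 TPM of Tfr2 in vehicle mice, 4.62 in the former group and 4.36 in the latter. The part of hepatocyte content in the rise of Tfr2 was not tested. Slc40a1, ferroportin, did not pass in any contrast against vehicle by limma on the scaled values, and at 10 nmol/kg of BI 456906 it passed on log2(TPM + 1) (0.37, adjusted p = 0.0154). It was at 61.3 to 85.5 TPM in vehicle mice and 65 to 95.4 TPM with BI 456906 at 30 nmol/kg, and the 95% interval of that log2 fold change ran from -0.19 to 0.28.

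Trf, transferrin, was the most abundant member in liver at 11347 to 12648 TPM in vehicle mice and 10526 to 13778 with BI 456906 at 30 nmol/kg. Its values in the count table fell by 0.25 ± 0.07 (adjusted p = 0.00373) on the log2 scale, but limma on log2(TPM + 1) gave -0.08 (adjusted p = 0.393). The count table held only 2.37 reads per TPM for Trf against 83.6 for Tfr2. Trf shares 32 pairs of overlapping exons with the gene Gm20425 on the same strand. Reads per TPM also depend on transcript length, and the part of the shared exons in the result was not tested.

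Over all 10 members, the 6 values at BI 456906 30 nmol/kg did not overlap those of vehicle for 5 that were higher (Hamp, Tfrc, Tfr2, Bmp6, Id1) and 1 that was lower (Fth1), where 29.4% of all genes did not overlap. With semaglutide at 100 nmol/kg the same was true of 2 that were higher (Tfrc and Tfr2) and of Fth1, beside 17.5% of all genes.

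**Figure D2:**
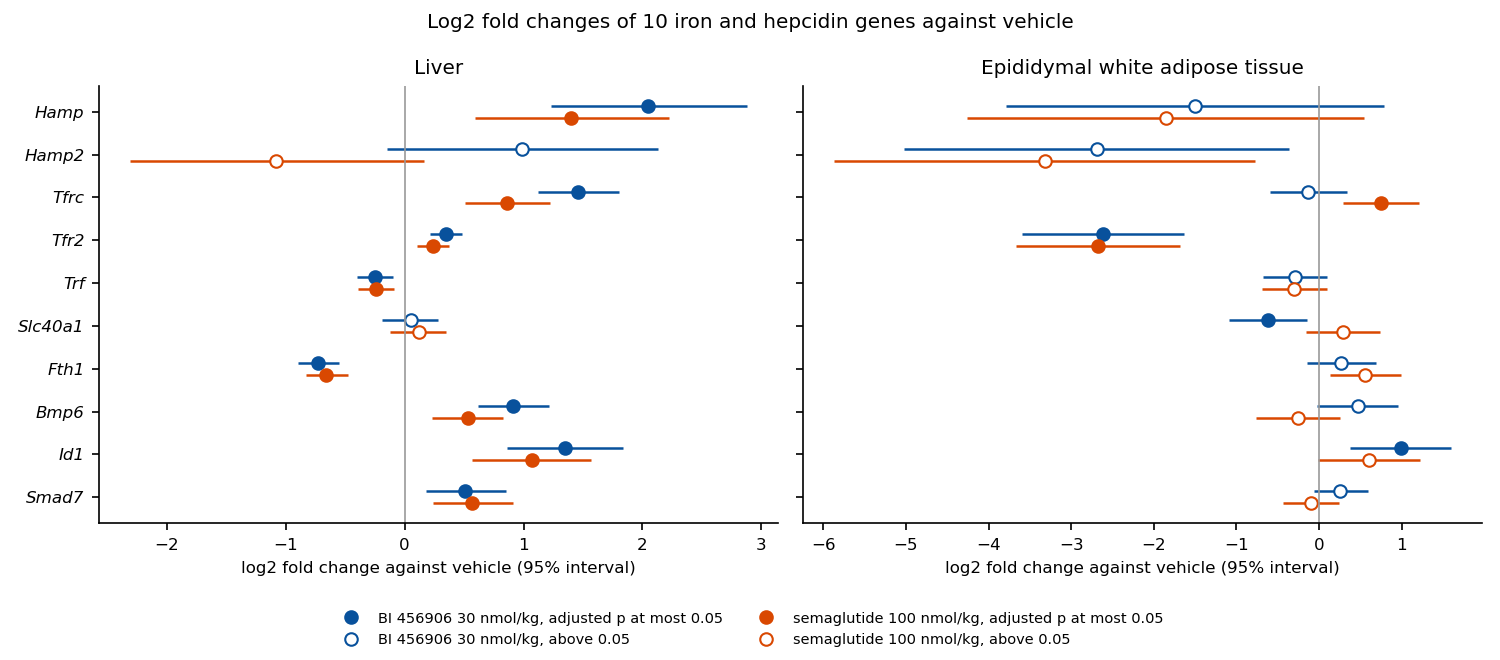
Log2 fold change of each gene against vehicle (horizontal axis, line at 0) with its 95% interval, for BI 456906 at 30 nmol/kg and semaglutide at 100 nmol/kg, in liver and in eWAT (panels with their own scales). Filled points passed at an adjusted p of at most 0.05. In liver the intervals of the compounds overlap for all genes, and Hamp2 lies on opposite sides of 0. Each interval is against the shared vehicle group, so their overlap does not test the compounds against each other. The direct contrast of these groups in liver passed for Hamp2 and Tfrc. In eWAT Tfr2 is the member furthest from 0 among those that passed, at -2.62 and -2.67.

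Across the 4 doses of BI 456906 and vehicle, 7 of the 10 members had a linear slope in liver that passed, where 58.9% of all genes did. Per 10 nmol/kg the log2 slope was 0.68 ± 0.12 (SE, adjusted p = 4.93e-06) for Hamp, 0.44 ± 0.05 (adjusted p = 4.31e-10) for Tfrc, 0.41 ± 0.07 (adjusted p = 2.16e-06) for Id1 and 0.28 ± 0.04 (adjusted p = 1.62e-07) for Bmp6. Fth1 had a slope of -0.20 ± 0.02 (adjusted p = 6.4e-09), and Tfr2 and Smad7 had small positive slopes of 0.10 ± 0.02 (adjusted p = 2.37e-05) and 0.13 ± 0.05 (adjusted p = 0.0209). The slope of Smad7 no longer passed over the 4 doses without vehicle (0.10, adjusted p = 0.171) or without BI 456906 30 nmol/kg library 72 (adjusted p = 0.0573).

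The compounds were compared directly in 3 contrasts to ask where the dual agonist and the GLP-1 receptor agonist differ. At the equal dose of 20 nmol/kg, 1 member passed in liver beside 2.42% of all genes. This was Hamp2, higher with BI 456906 by 2.28 ± 0.61 (95% interval 1.04 to 3.51, adjusted p = 0.0343), with values of 127 to 1237 against 24.6 to 195 TPM that overlap. The call was lost when any of the libraries 61, 63, 64, 73, 74 and 75 was left out (adjusted p up to 0.103). For Hamp the difference was 0.21 with an interval of -0.63 to 1.04, so a difference of either sign remained possible, and for Tfrc it was -0.12 (-0.44 to 0.19).

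BI 456906 at 30 nmol/kg and semaglutide at 100 nmol/kg differed in 2 members beside 9.75% of all genes. Hamp2 was higher with BI 456906 by 2.06 ± 0.61 (0.84 to 3.29, adjusted p = 0.0246) and Tfrc by 0.60 ± 0.15 (0.29 to 0.90, adjusted p = 0.00838). The difference for Hamp was 0.65 with an interval of -0.2 to 1.5 (adjusted p = 0.361). The Hamp2 call was lost without library 69, 70, 80 or 81 (adjusted p up to 0.0703) and when only these groups were fitted (adjusted p = 0.0862).

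BI 456906 at 30 nmol/kg against semaglutide at 20 nmol/kg gave 3 members beside 13.6% of all genes, namely Hamp2 (2.12 ± 0.61, adjusted p = 0.0175), Tfrc (0.51 ± 0.15, adjusted p = 0.0205) and Bmp6 (0.47 ± 0.14, adjusted p = 0.0191). The call was lost for Hamp2 without library 75 (adjusted p = 0.0567), for Tfrc without library 72 or 75 and for Bmp6 without library 68, 70 or 77 (adjusted p up to 0.0645). For Hamp the difference was 0.86 with an interval of 0.02 to 1.71 (limma, adjusted p = 0.168). Hamp passed when only these groups were fitted (0.85, limma, adjusted p = 0.0314). The doses differ in the latter 2 contrasts, so compound and dose cannot be told apart there.

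Within the liver groups, 3 of 7 tested pairs of members varied together from mouse to mouse over all 42 libraries, Hamp with Bmp6, Id1 with Smad7 and Hamp with Smad7. The 42 libraries were expressed as log2(TPM + 0.1) less the mean of their group, and 7 pairs were tested by permuting libraries within groups 100000 times. Hamp and Bmp6 had a Pearson r of 0.65 (Spearman rho 0.65, permutation, adjusted p = 0.00017 for r over the 7 pairs). Id1 and Smad7 also had an r of 0.65 (rho 0.71, permutation, adjusted p = 0.00017), and Hamp and Smad7 an r of 0.57 (rho 0.55, permutation, adjusted p = 0.00042). Without the 2 libraries farthest from the median on the first gene, r was 0.60, 0.61 and 0.44.

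Over all 42 libraries Hamp and Hamp2 did not pass, with an r of -0.25 (rho -0.31, permutation, adjusted p = 0.14 for r and 0.073 for rho) that became -0.36 without libraries 49 and 80. Hamp and Id1 had an r of 0.30 (adjusted p = 0.14 by permutation) and a rho of 0.42 (adjusted p = 0.014 by permutation). Hamp and Tfrc gave 0.14 (permutation, adjusted p = 0.48) and Tfrc and Slc40a1 gave 0.28 (permutation, adjusted p = 0.14). The 3 pairs that passed did not pass within the vehicle and semaglutide groups alone, 18 libraries, where r was 0.60 for Hamp and Bmp6 (permutation, adjusted p = 0.092), 0.62 for Id1 and Smad7 (adjusted p = 0.17) and 0.37 for Hamp and Smad7 (adjusted p = 0.41). They passed within the BI 456906 groups alone, 24 libraries. There r was 0.70 (permutation, adjusted p = 0.00091), 0.66 (adjusted p = 0.0013) and 0.74 (adjusted p = 7e-05) in the same order. Hamp with Hamp2 (r = -0.46, permutation, adjusted p = 0.0096) and Hamp with Id1 (r = 0.59, adjusted p = 0.0024) also passed within the BI 456906 groups. All values of 1 library share its depth and RNA.

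**Figure D3:**
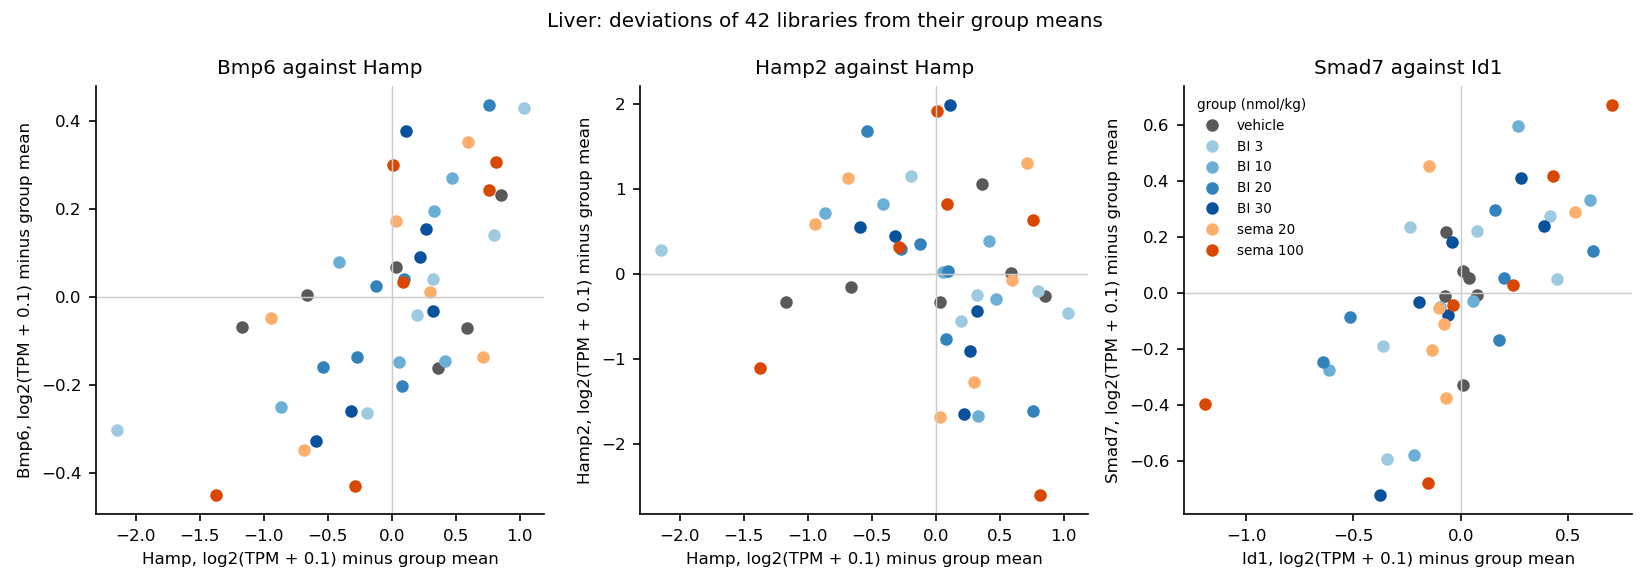
Deviation of each of 42 liver libraries from its group mean in log2(TPM + 0.1), for Bmp6 against Hamp, Hamp2 against Hamp and Smad7 against Id1, with the treatment group as colour. Bmp6 rises with Hamp (r = 0.65) and Smad7 with Id1 (r = 0.65), whereas Hamp2 scatters without a rise (r = -0.25).

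Of the 15963 other genes tested in liver, the 5 whose deviations were most like those of Hamp over the 42 libraries were Gm4673 (rho 0.85), E030018B13Rik (0.75), Nnmt (0.74), Tedc2 (0.74) and Slc25a29 (0.73). Nnmt encodes nicotinamide N-methyltransferase, averaged 263 TPM and rose with BI 456906 at 30 nmol/kg by 2.49 (adjusted p = 3.04e-09 from limma). Bmp6 ranked 28 in this order, Smad7 188 and Id1 795. At the other end of the members, Trf had a rho of -0.45 and Fth1 of -0.54.

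The other genes of the pathway did not move in 1 direction in liver. Of 32 further genes in the control of hepcidin, 28 were tested with BI 456906 at 30 nmol/kg, 12 rose and 11 fell, with a median log2 fold change of 0.06. Over all genes 28.9% rose and 29.9% fell in this contrast, which the counts of each list below stand beside. Acvr2b, a receptor for activins and BMPs, rose by 1.10 ± 0.23 (adjusted p = 9.64e-05) and Fgl1, a protein secreted by the liver, by 1.63 ± 0.19 (adjusted p = 2.55e-09). Of 7 further SMAD targets, some of them in the former list too, 2 rose and 1 fell. Smad9 rose by 0.85 ± 0.35 (adjusted p = 0.0321) and Atoh8 by 0.36 ± 0.15 (adjusted p = 0.0304), and the inhibitor Smad6 fell by 0.47 ± 0.12 (adjusted p = 0.00069). Of 10 genes tested in the IL-6 arm, the inflammatory route to hepcidin, 6 rose and 1 fell with a median of 0.55. Il6ra, the receptor for IL-6, rose by 1.14 ± 0.16 (adjusted p = 7.99e-08), Fgb, a chain of fibrinogen, by 0.91 ± 0.13 (adjusted p = 3.37e-07) and Socs3, the feedback inhibitor, by 0.77 ± 0.22 (adjusted p = 0.00315).

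Among 21 tested genes of iron uptake, storage and export, 8 rose and 6 fell with BI 456906 at 30 nmol/kg (median 0.10), beside the same 28.9% and 29.9% of all genes. Cd163, the scavenger receptor for haptoglobin and haemoglobin on macrophages, rose by 2.25 ± 0.78 (adjusted p = 0.0131). Lcn2, which binds iron-loaded siderophores, rose by 1.22 ± 0.50 (adjusted p = 0.0357), and Steap1 rose by 1.45 ± 0.47 (adjusted p = 0.00821) at under 1 TPM. The 10 macrophage markers summed to 276 to 568 TPM in vehicle mice and 199 to 420 TPM in this group, with 0 rising and 1 falling. Of 9 genes of iron and oxygen sensing 4 rose and 3 fell, and Ireb2, which encodes iron regulatory protein 2, rose by 0.69 ± 0.08 (adjusted p = 1.05e-08) with BI 456906 at 30 nmol/kg and by 0.70 ± 0.08 (adjusted p = 4.47e-08) with semaglutide at 100 nmol/kg. Hif1a rose by 0.77 ± 0.08 (adjusted p = 1.4e-10) and Epas1 by 0.62 ± 0.09 (adjusted p = 1.09e-07).

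The lists for users of iron had medians below 0. Beside 28.9% of all genes that rose and 29.9% that fell, 4 of 20 heme genes rose and 9 fell (median -0.16), with Alas1, the first enzyme of heme synthesis, up by 0.71 ± 0.21 (adjusted p = 0.00406), Flvcr2 up by 0.72 ± 0.18 (adjusted p = 0.000814) and Blvrb, a biliverdin reductase, down at -0.66 ± 0.08 (adjusted p = 4.27e-09). Of 14 iron-sulfur cluster genes 1 rose and 9 fell (median -0.23), and semaglutide at 100 nmol/kg gave 0 that rose and 8 that fell (median -0.24), beside 24% and 24.1% of all genes. Glrx5 (-1.01 ± 0.07, adjusted p = 2.46e-13), Hscb (-0.80 ± 0.15, adjusted p = 2.51e-05) and Iscu (-0.79 ± 0.06, adjusted p = 1.04e-12), all factors of mitochondrial cluster assembly, fell most with BI 456906 at 30 nmol/kg. The median over all genes was -0.03.

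In eWAT fewer members changed. With BI 456906 at 30 nmol/kg 3 of 10 passed, beside 23.9% of the 18536 genes tested. Id1 was the 1 that rose, beside 10.9% of all genes, and Tfr2 and Slc40a1 fell, beside 13%. Only Tfr2 also reached a log2 fold change of 1 in size (6.34% of genes), and no member had groups that did not overlap (6.31% of genes). With semaglutide at 100 nmol/kg 2 passed (14.9% of genes), and with 20 nmol/kg 1 passed (6.33%). BI 456906 gave 1 at 20 nmol/kg (4.27%). By limma at the main settings 0 passed at 10 nmol/kg (0.513% of genes, 4 members at an unadjusted p under 0.05). At 3 nmol/kg 0 passed (0.00539% of genes, 0 members at an unadjusted p under 0.05). Both doses gave 0 with edgeR and DESeq2, and sample quality weights in limma gave 4 at 10 nmol/kg.

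**Figure D4:**
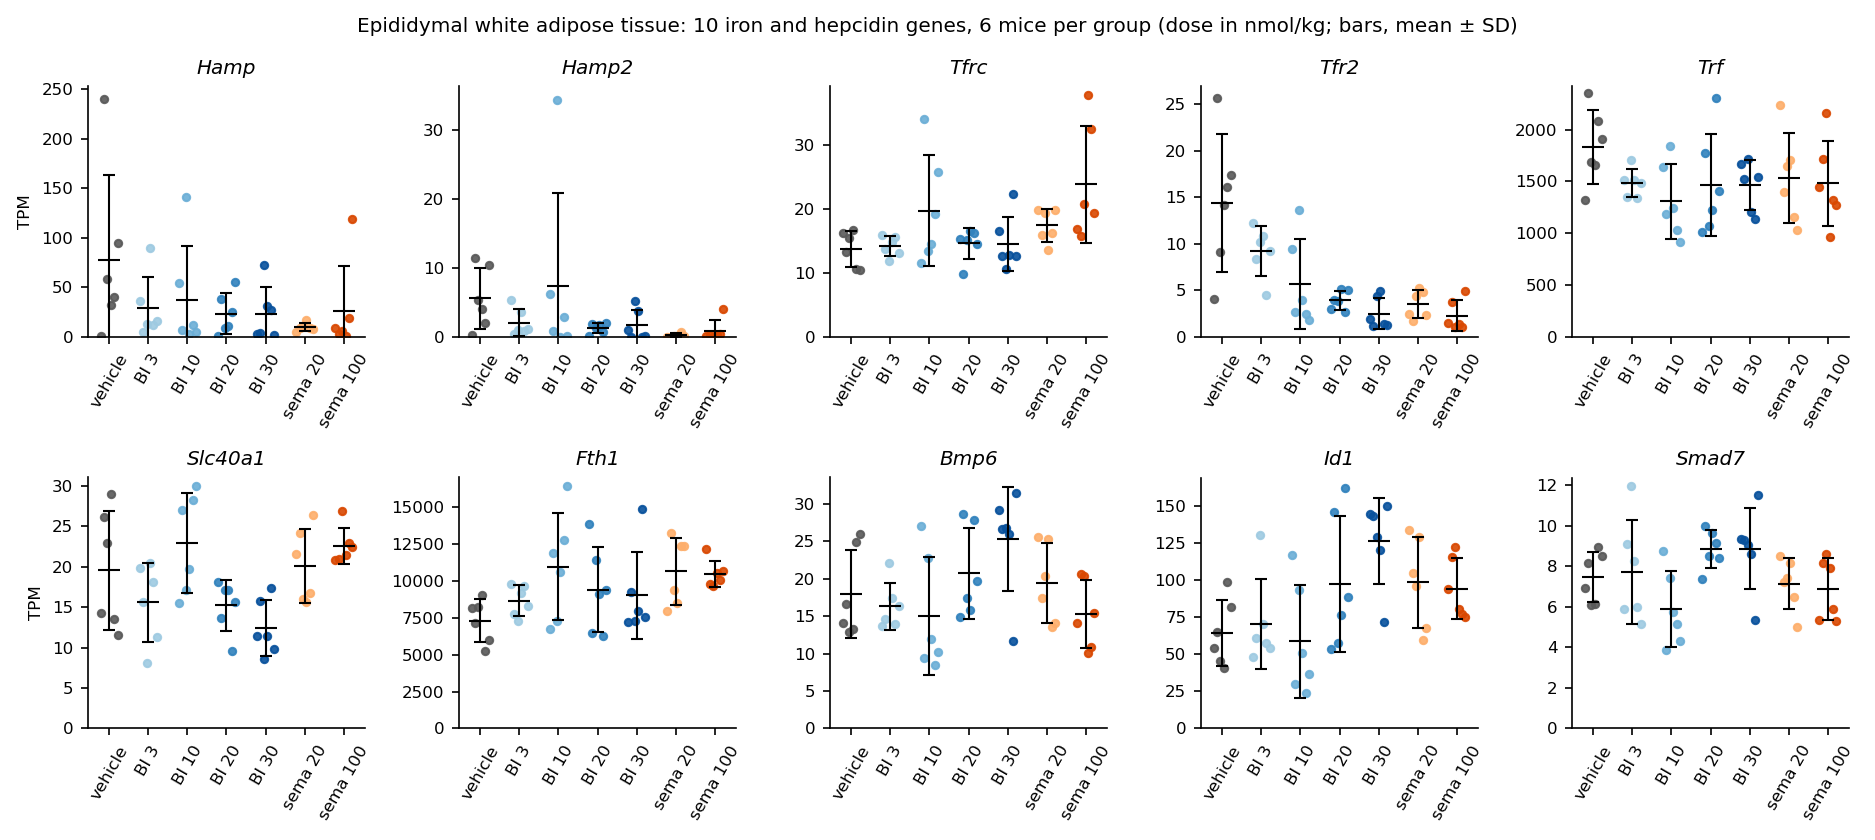
Level of each of the 10 genes in eWAT in TPM (vertical axis, from 0) by treatment group with the dose in nmol/kg (horizontal axis), with 1 point per mouse and the mean ± SD of 6 mice. Tfr2 is lower in most treated groups than in vehicle, while Hamp and Hamp2 are low and scatter between mice of a group.

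Hepatocyte transcripts were present in eWAT and differed between groups, which bears on Hamp, Hamp2 and Tfr2. Albumin (Alb), made by hepatocytes, was at 9.87 to 3680 TPM in vehicle eWAT (median 917), 12.1 to 548 TPM with BI 456906 at 30 nmol/kg (median 59.4) and 3.47 to 747 TPM with semaglutide at 100 nmol/kg (median 47.2). The 6 hepatocyte markers summed to 20.8 to 5858 TPM, 20.1 to 1007 TPM and 6.47 to 1274 TPM in these groups, none of them at 0 in every library.

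Hamp in eWAT was at 0.86 to 240 TPM in vehicle mice, 2.33 to 72.8 TPM with BI 456906 at 30 nmol/kg and 0.51 to 119 TPM with semaglutide at 100 nmol/kg. These levels were far below those of liver, and by limma at the main settings none of the contrasts passed (log2 fold change -1.5 ± 1.13, adjusted p = 0.35 for BI 456906 at 30 nmol/kg). With sample quality weights in limma, BI 456906 at 30 nmol/kg passed (-2.86, adjusted p = 0.0341). Semaglutide at 20 nmol/kg passed with DESeq2 on the recovered reads (-2.89, adjusted p = 0.0265). Without vehicle library 1, Hamp passed by limma with BI 456906 at 30 nmol/kg (-2.58, adjusted p = 0.0365) and with semaglutide at 100 nmol/kg (-2.96, adjusted p = 0.0276). Liver of vehicle mice held 47.9 TPM of Hamp per 1000 TPM of Alb. At that ratio the Alb of the vehicle eWAT libraries would come with 0.473 to 176 TPM of Hamp (median 44), beside a measured median of 49.1. With log2 Alb as a covariate the contrast of BI 456906 at 30 nmol/kg for Hamp was 1.26 (limma, adjusted p = 0.0191), of the opposite sign. Liver of that group held 158 TPM of Hamp per 1000 TPM of Alb, and the covariate did not allow for this other ratio. After subtracting the amount at each group's own liver ratio, a median of 9.16 TPM (-17.6 to 64.2) remained in vehicle eWAT. With BI 456906 at 30 nmol/kg the median remainder was 0.943 TPM (-13.7 to 11). The part of transferred liver RNA in the levels of Hamp was not tested beyond these values. Hamp2 held 0 to 204 reads per library in eWAT, and its contrasts did not pass by limma at the main settings. They were -2.69 ± 1.15 (adjusted p = 0.0836) with BI 456906 at 30 nmol/kg and -4.05 ± 1.39 (adjusted p = 0.0706) with semaglutide at 20 nmol/kg. The latter passed with edgeR (-4.48, adjusted p = 0.018) and DESeq2 (-4.60, adjusted p = 0.00272) on the recovered reads, with no filter on low values (adjusted p = 0.0366), on log2(TPM + 1) (adjusted p = 0.0298) and on log2(TPM + 0.1) (adjusted p = 0.0238). It also passed without vehicle library 1 (adjusted p = 0.0177) or BI 456906 library 15 (adjusted p = 0.04). With sample quality weights in limma, Hamp2 passed at BI 456906 30 nmol/kg (-3.18, adjusted p = 0.00749). The same weights gave a pass at semaglutide 20 (-4.58, adjusted p = 0.0091) and 100 nmol/kg (-3.65, adjusted p = 0.0171).

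Tfr2, though known as a hepatocyte gene, fell in eWAT in 4 of 6 contrasts. It was at 4.09 to 25.7 TPM (median 15.1) in vehicle mice, 4.49 to 12.2 (median 9.71) with BI 456906 at 3 nmol/kg, 1.8 to 13.7 (median 3.34) at 10 nmol/kg, 2.64 to 5.13 (median 3.91) at 20 nmol/kg and 1.15 to 4.98 (median 1.62) at 30 nmol/kg. Semaglutide gave 1.69 to 5.25 TPM (median 3.43) at 20 nmol/kg and 1.06 to 4.95 (median 1.45) at 100 nmol/kg. A single vehicle mouse, library 1, lay within the ranges of the groups given the higher doses of BI 456906 (20 and 30 nmol/kg) or semaglutide, and the other vehicle mice lay above all mice of these groups.

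The log2 fold change of Tfr2 was -2.62 ± 0.49 (adjusted p = 0.000225) with BI 456906 at 30 nmol/kg, -1.73 ± 0.42 (adjusted p = 0.0143) at 20 nmol/kg, -1.97 ± 0.44 (adjusted p = 0.00467) with semaglutide at 20 nmol/kg and -2.67 ± 0.49 (adjusted p = 0.000321) at 100 nmol/kg. At the ratio of liver, the Alb of the vehicle libraries would come with 0.0452 to 16.8 TPM of Tfr2 (median 4.2). After subtracting this amount in each library, 2.63 to 14 TPM remained in vehicle eWAT (median 9.12), 0.86 to 4.3 with BI 456906 at 30 nmol/kg (median 1.55) and 0.627 to 3.6 with semaglutide at 100 nmol/kg (median 1.31). The remainder was lower than in vehicle by 6.91 TPM and by 7.19 TPM (exact permutation, adjusted p = 0.0195 each over 6 contrasts). At 20 nmol/kg of either compound it was also lower (permutation, adjusted p = 0.0422 each). At BI 456906 10 nmol/kg (permutation, adjusted p = 0.0545) and 3 nmol/kg (adjusted p = 0.524) the remainder did not pass. This test was not planned beforehand. The part of liver RNA in the fall of Tfr2 was not tested beyond these values and the fits below.

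Without the 5 eWAT libraries over 1000 TPM of Alb, 3 of them vehicle, the fall of Tfr2 still passed at -2.40 (adjusted p = 0.00136) for BI 456906 at 30 nmol/kg, while at 20 nmol/kg it did not (-1.52, adjusted p = 0.0518) and at 10 nmol/kg it did (-1.66, adjusted p = 0.035). With log2 Alb as a covariate it was smaller, at -1.72 (adjusted p = 0.00193), and for semaglutide at 100 nmol/kg -1.77 (adjusted p = 0.00479). At 20 nmol/kg the covariate ended the call for BI 456906 (-1.08, adjusted p = 0.0534) and for semaglutide (-1.03, adjusted p = 0.115). These alternatives were chosen after the data were seen. Fitting only the groups compared also ended the call at 20 nmol/kg for BI 456906 (adjusted p = 0.0916) and for semaglutide (adjusted p = 0.0589).

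**Figure D5:**
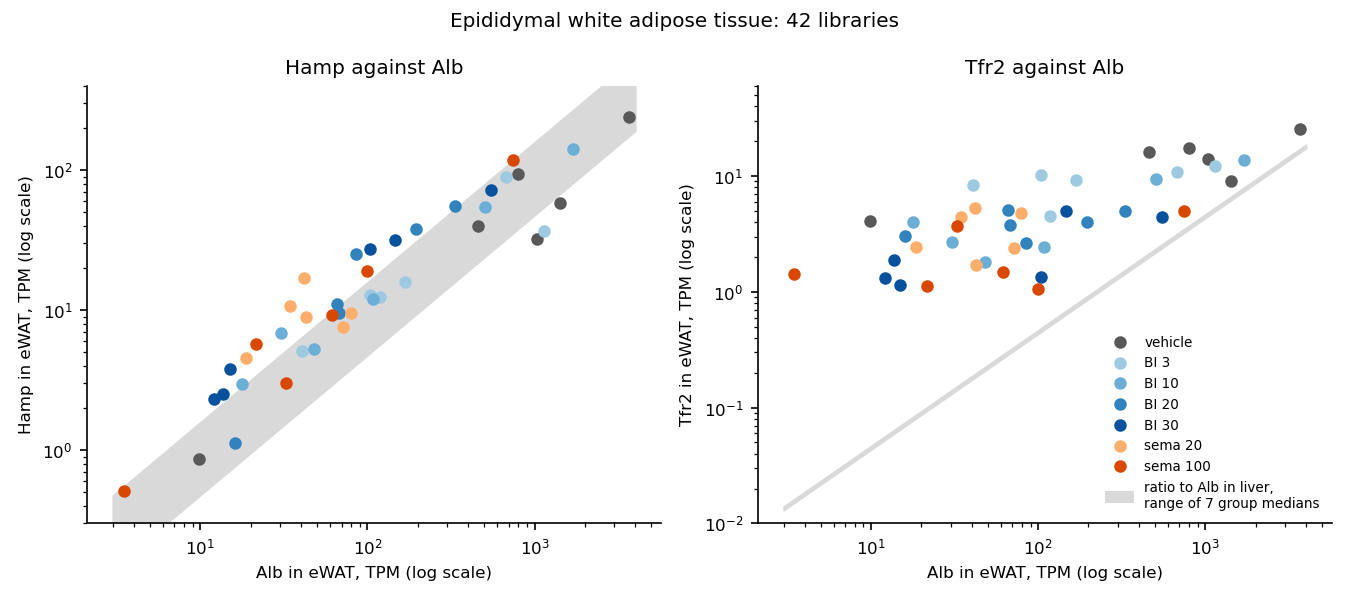
Hamp and Tfr2 in the 42 eWAT libraries (vertical axes, TPM, log scale) against Alb in the same library (horizontal axes, TPM, log scale), with the treatment group as colour. The grey band is the ratio to Alb in liver, from the lowest to the highest of the 7 group medians, 47.9 to 158 TPM of Hamp and 4.36 to 4.65 TPM of Tfr2 per 1000 TPM of Alb. Most Hamp points lie on or near the band, and all Tfr2 points lie above it.

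Id1 was at 40.4 to 98.3 TPM in vehicle eWAT and 71.7 to 150 TPM with BI 456906 at 30 nmol/kg (0.99 ± 0.30, adjusted p = 0.0169), with a median of 59.6 against 136. The call was lost without the 5 libraries rich in Alb (0.66, adjusted p = 0.232). The 3 mesothelium markers summed to 8.06 to 69.8 TPM in vehicle eWAT and 37.6 to 124 TPM in this group, all 3 rising in the test, and their part in the rise of Id1 was not tested. Slc40a1 was at 11.6 to 28.9 TPM in vehicle mice and 8.62 to 17.4 TPM with BI 456906 at 30 nmol/kg. Its fall of -0.62 ± 0.23 had an adjusted p of 0.048, and it was lost in 5 other settings (adjusted p up to 0.119) and when any 1 of 34 of the 42 libraries was left out, with the highest value for vehicle library 4 (adjusted p = 0.137). Without the 5 libraries rich in Alb the difference was -0.15 (adjusted p = 0.759), and with log2 Alb as a covariate -0.59 (adjusted p = 0.0879). Macrophages export iron through ferroportin, and the macrophage marker Adgre1 had a median of 291 TPM in vehicle eWAT and 164 TPM with BI 456906 at 30 nmol/kg. The sum of the 10 macrophage markers ranged from 2091 to 5382 and from 2733 to 4273 TPM in these groups, with 0 of 10 passing. Its part in the result was not tested.

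Tfrc in eWAT was at 10.4 to 16.8 TPM in vehicle mice and 15.7 to 37.8 TPM with semaglutide at 100 nmol/kg (0.75 ± 0.23, adjusted p = 0.0228). The call was lost without vehicle library 5 or 6 or semaglutide library 40 or 41 (adjusted p up to 0.072), and with log2 Alb as a covariate (adjusted p = 0.188). It was also lost by limma with sample quality weights (0.49, adjusted p = 0.0623) and with only the groups compared (0.74, adjusted p = 0.0859). BI 456906 at 30 nmol/kg left Tfrc at 10.6 to 22.3 TPM, with an interval of the log2 fold change from -0.59 to 0.34. Fth1 was at 5228 to 9026 TPM in vehicle mice, 7190 to 14856 with BI 456906 at 30 nmol/kg (0.27 ± 0.21, adjusted p = 0.362) and 9635 to 12108 with semaglutide at 100 nmol/kg, above all vehicle mice (0.56 ± 0.21, adjusted p = 0.067). The latter difference passed by limma with library size alone (adjusted p = 0.0456) and with sample quality weights (adjusted p = 0.0202). It also passed with only the groups compared (adjusted p = 0.035) and without the 5 libraries rich in Alb (adjusted p = 0.0487). By limma at the main settings Bmp6, Smad7 and Trf passed in no contrast against vehicle in eWAT, though Bmp6 passed at BI 456906 30 nmol/kg without library 29 (adjusted p = 0.0331). With sample quality weights in limma, Bmp6 (0.73, adjusted p = 0.00143) and Smad7 (0.40, adjusted p = 0.0186) passed at BI 456906 30 nmol/kg. Trf passed with these weights at 10 (-0.73, adjusted p = 0.00731) and 20 nmol/kg (-0.55, adjusted p = 0.0279).

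The slope over the dose of BI 456906 in eWAT passed for 4 members beside 29.5% of all genes. It was -0.80 ± 0.14 per 10 nmol/kg for Tfr2 (adjusted p = 0.00011), 0.34 ± 0.09 for Id1 (adjusted p = 0.00382), 0.19 ± 0.07 for Bmp6 (adjusted p = 0.0396) and -0.17 ± 0.07 for Slc40a1 (adjusted p = 0.0459). On the rank of the dose Bmp6 (adjusted p = 0.0871) and Slc40a1 (adjusted p = 0.0726) did not pass. Without the 5 libraries rich in Alb the slopes were 0.12 (adjusted p = 0.277) for Bmp6 and -0.07 (adjusted p = 0.529) for Slc40a1. The slope of Slc40a1 was also lost over the 4 doses without vehicle (adjusted p = 0.109) and when any 1 of 31 libraries was left out (adjusted p up to 0.122), and that of Bmp6 when any 1 of 10 was left out (adjusted p up to 0.0819).

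Between the compounds 0 of 10 members passed in eWAT by limma at the main settings. With sample quality weights in limma, 6 passed for BI 456906 30 against semaglutide 100 nmol/kg and 4 for 30 against 20 nmol/kg. At 20 nmol/kg each, 0% of all genes passed and 1 member had an unadjusted p under 0.05, and edgeR and DESeq2 gave 0. For BI 456906 at 30 nmol/kg against semaglutide at 100 nmol/kg, 0.0108% of all genes passed, 4 members had an unadjusted p under 0.05, and edgeR and DESeq2 each gave 2, Tfrc and Slc40a1, both lower with BI 456906. Against semaglutide at 20 nmol/kg, 0% of genes passed, 2 members had an unadjusted p under 0.05, and edgeR and DESeq2 gave 0.

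Of further pathway genes in eWAT with BI 456906 at 30 nmol/kg, 4 of the 7 SMAD targets rose and 0 fell (median 0.47), namely Smad9 by 1.41 ± 0.33 (adjusted p = 0.00218), Atoh8 by 0.97 ± 0.21 (adjusted p = 0.00114), Id3 by 0.49 ± 0.15 (adjusted p = 0.015) and Bambi, named here to complete the count. Over all genes 10.9% rose and 13% fell in this contrast, which the counts of this list and those that follow stand beside. Of 31 tested genes in the control of hepcidin 8 rose and 4 fell. Hfe2, which encodes the BMP co-receptor hemojuvelin, and Tmprss6, the protease that cuts it, both of hepatocytes, fell by 4.33 ± 1.27 (adjusted p = 0.0123) and 4.01 ± 1.29 (adjusted p = 0.0217), beside the fall in Alb. Of 23 genes of iron uptake, storage and export 9 rose and 3 fell, with Slc39a8, an importer of metal ions, up by 1.64 ± 0.38 (adjusted p = 0.00226) and Hephl1 down at -1.85 ± 0.32 (adjusted p = 9.54e-05). The IL-6 arm had 1 that rose and 2 that fell of 11, iron sensing 2 and 1 of 9, heme 1 and 4 of 20 and iron-sulfur clusters 2 and 0 of 14.

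The responses of liver and eWAT were compared in 1 fit of all 84 libraries, which tests the difference of the log2 fold changes over 15297 genes kept in both tissues. For BI 456906 at 30 nmol/kg 4 members differed, beside 45.9% of all genes. The fold change in liver exceeded that in eWAT by 3.46 ± 1.12 for Hamp (adjusted p = 0.00849), 2.87 ± 0.44 for Tfr2 (adjusted p = 1.61e-07) and 1.48 ± 0.30 for Tfrc (adjusted p = 4.21e-05), and Fth1 differed by -1.11 ± 0.22 (adjusted p = 3.02e-05). For semaglutide at 100 nmol/kg 4 members differed beside 33.9% of all genes, Hamp by 3.22 ± 1.16 (adjusted p = 0.0248), Tfr2 by 2.86 ± 0.44 (adjusted p = 8.55e-07), Fth1 by -1.27 ± 0.22 (adjusted p = 8.18e-06) and Smad7 by 0.62 ± 0.24 (adjusted p = 0.0418). The call for Smad7 was lost when values were scaled by library size alone (0.61, adjusted p = 0.0534). On log2(TPM + 1) 6 members differed for BI 456906, Slc40a1 (0.75, adjusted p = 0.0119) and Hamp2 (2.40, adjusted p = 0.0232) in addition, and 5 for semaglutide, Bmp6 in addition (0.74, adjusted p = 0.0398). The eWAT side of the Hamp difference moved with Alb, as given above. No library of liver is tied by its label to a library of eWAT, so the mice could not be paired.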

How the data were processed

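The authors sequenced RNA of 42 liver and 42 epididymal fat (eWAT) samples, each from its own mouse within a tissue. The submitters' processing notes name STAR 2.5.2b, RSEM 1.3.0, featureCounts 1.5.1 and FastQC 0.11.5 with the builds mm10 and GRCm38. The labels and the study's methods describe different library kits and read layouts. For each tissue the authors deposited a TPM table and a table named as counts. The deposited values of the latter were not whole, so they were taken as a scaled signal, where raw counts had been planned for. In each library 100% of them were whole multiples of 1 step, from which whole reads were recovered. TPM relates reads to transcript length, whereas the scaled values count only reads that the counter could assign to 1 gene.

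Scaled values were tested with limma 3.58.1 (voom, TMM, the filterByExpr rule of edgeR 4.0.16) in R 4.3.3, with all 7 groups of a tissue in 1 fit (both tissues in 1 fit for the difference between them) and Benjamini-Hochberg adjustment over all genes tested. Summed Hamp and Hamp2 levels were tested with exact permutation (two-sided), and relations by 100000 permutations within groups, in Python 3.11.15 with scipy 1.17.1. Alternatives were other scalings, filters and weights, log2(TPM + 1) and log2(TPM + 0.1), edgeR's quasi-likelihood test and DESeq2 1.42.0 on the recovered reads, fits of only the groups compared, and leaving out each library. The fit was checked on simulated data. Genes were named by a fixed rule: all 10 members, of each pathway list up to 3 genes per tissue with the largest change among those that passed for BI 456906 at 30 nmol/kg, and the 5 genes most like Hamp. The members and lists were chosen with earlier results of these data known. The limma p-values set differences of group means against the spread between mice within groups, pooled over the groups of a fit. The permutation p-values set a mean difference, an r or a rho against values from permuted libraries.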

Additional observations from a re-analysis of the deposited data

Results flagged for a closer look

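Of 140 sets of 6 values, each 1 gene in 1 group of mice, 19 held a library set apart from the others by Dixon's test at the 95% level. Chance alone sets apart about 1 independent set in 20 where values are normally distributed, which was not checked for these TPM values. These sets are also not independent, since the 10 genes of a group share their libraries. The count of 19 was therefore not compared with a rate expected by chance. In liver, Hamp2 was highest at 343.4 TPM in vehicle library 48, 422.5 TPM in library 50 (BI 456906 3 nmol/kg), 1237 TPM in library 64 (20 nmol/kg) and 1355 TPM in library 70 (30 nmol/kg), which next reached 165.7, 231.2, 495 and 503 TPM. Library 70 was also the highest of its group for Fth1 at 2371 TPM. Further liver libraries above their groups were library 66 for Tfrc at 8.7 TPM, library 56 for Slc40a1 at 141.9 TPM, library 65 for Bmp6 at 9.85 TPM and library 74 for Id1 at 41.59 TPM.

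In eWAT, Hamp stood out at 89.72 TPM in library 10 and 118.8 TPM in library 42, and Hamp2 at 34.34 TPM in library 15, 0.78 TPM in library 35 and 4.1 TPM in library 42. Library 29 (BI 456906 30 nmol/kg) was the highest of its group for Fth1 at 14856 TPM and the lowest for Bmp6 at 11.72 TPM. Tfrc was lowest at 9.91 TPM in library 20, Slc40a1 highest at 26.94 TPM in library 39 and Id1 highest at 130.3 TPM in library 9.

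The response differed between liver and eWAT in 8 tests of the difference itself (limma, adjusted over 15297 genes). The liver value less the eWAT value was 3.46 for Hamp, 1.48 for Tfrc, 2.87 for Tfr2 and -1.11 for Fth1 with BI 456906 at 30 nmol/kg. With semaglutide at 100 nmol/kg it was 3.22 for Hamp, 2.86 for Tfr2, -1.27 for Fth1 and 0.62 for Smad7.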

How the results depend on the processing

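No paired analysis was possible because the groups share no replicate numbers and no label ties a liver library to an eWAT library. Of 1110 liver results for single members under other settings 1054 kept direction and side of the threshold, of 1286 in eWAT 1210, and of 4200 per tissue with 1 library left out 4120 in liver and 4067 in eWAT. For the results below that changed, the cause was not tested except where fewer samples were fitted.

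In liver, members passing at BI 456906 3 nmol/kg (2) became 1 with RLE size factors or no filter on low values and 0 with only the groups compared. At 10 nmol/kg 3 became 5 with DESeq2 or sample quality weights. Between BI 456906 and semaglutide at 20 nmol/kg 1 became 0 with no filter or only the groups compared and 2 with quality weights, and between the highest doses 2 became 1 with no filter or only the groups compared. In eWAT, quality weights gave 4 in place of 0 at BI 456906 10 nmol/kg, 2 in place of 1 at 20 nmol/kg, 7 in place of 3 at 30 nmol/kg, 3 in place of 1 at semaglutide 20 nmol/kg and 4 in place of 2 at 100 nmol/kg. They gave 6 in place of 0 for BI 456906 30 against semaglutide 100 nmol/kg, 4 in place of 0 for 30 against 20 nmol/kg and 7 in place of 4 for the slope. Only the groups compared gave 0 at BI 456906 20 nmol/kg and 0 at semaglutide 20 nmol/kg. At semaglutide 20 nmol/kg no filter, edgeR and both log2 TPM scales gave 2 and DESeq2 gave 3. For BI 456906 30 against semaglutide 100 nmol/kg edgeR, DESeq2 and a minimum of 10 in every library gave 2. The rank of the dose gave a slope for 2.

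Chosen after seeing the data, leaving out the 5 eWAT libraries over 1000 TPM of Alb gave 1 at BI 456906 10 nmol/kg, 0 at 20, 1 at 30, 4 at semaglutide 100 nmol/kg and 2 slopes. With log2 Alb as a covariate 0 passed at BI 456906 20 nmol/kg, 0 at semaglutide 20, 1 at semaglutide 100, and 2 for BI 456906 30 against semaglutide 100 nmol/kg. Under this covariate Hamp in eWAT turned to 1.26 (limma, adjusted p = 0.0191) at BI 456906 30 nmol/kg and its slope to 0.45 (adjusted p = 0.00313). The covariate did not allow for the ratio of Hamp to Alb in liver, which differed between groups.

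Leaving out 1 library gave 1 to 3 in liver at BI 456906 3 nmol/kg, 0 to 1 between compounds at 20 nmol/kg and 1 to 3 in both other contrasts of compounds. In eWAT it gave 0 to 1 at BI 456906 10 nmol/kg, 2 to 5 at 30, 1 to 2 at semaglutide 20, 1 to 4 at semaglutide 100, 0 to 3 for BI 456906 30 against semaglutide 100 nmol/kg, and 2 to 5 slopes.

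The sum of Hamp and Hamp2 at BI 456906 10 nmol/kg lost its call with deposited counts (0.77, permutation, adjusted p = 0.0753), for Hamp alone (0.76, adjusted p = 0.0935) and in 4 of 12 fits without 1 library (0.65 to 1.02), and at semaglutide 20 nmol/kg in 3 of 12 (0.95 to 1.35). Within the BI 456906 groups alone r was -0.46 for Hamp and Hamp2 and 0.59 for Hamp and Id1, both past the threshold. In vehicle and semaglutide groups alone it was 0.37 for Hamp and Smad7, 0.62 for Id1 and Smad7 and 0.60 for Hamp and Bmp6, none past it. Hamp2 in eWAT, at 0 to 204 reads, is the member whose depth limits the comparison most.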
